A study of Mus musculus with 36 samples.

Results

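The comparison described here set mouse lymphoma cells that expressed the TRP53 mutant R246Q against cells with a negative control construct (pMIG in the sample descriptions), both after nutlin-3a. Its members were picked by their construct and treatment labels and comprise 6 of the 36 RNA-seq libraries in the series. R246Q and the control each had 3 of them, 1 from each of the Em-myc lymphoma lines AH47A, 287 and 621. Treated cells had received 5 µM nutlin-3a for 12 h together with the caspase inhibitor QVD-OPH at 25 µM, which was added to keep the cells alive. The labels do not say whether untreated cultures had the inhibitor as well. All groups carry the Em-myc background, which drives Myc in B cells, and the design describes the lines' own TRP53 as wild type. Used for reference were the 6 untreated libraries of R246Q and control, and the 12 nutlin libraries of the other 4 mutants, G280, I192S, R270H and V170M. The labels name no repeat culture of a line, so p-values measure only the spread between these libraries.

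Trp53 encodes p53, a transcription factor that binds DNA as a tetramer and turns on genes for cell cycle arrest, apoptosis, DNA repair and metabolism. Among its targets is Mdm2, the ubiquitin ligase that degrades it, and nutlin-3a frees p53 by occupying the p53 pocket of MDM2. Many tumour mutations of the DNA-binding domain weaken DNA binding, and a mutant subunit can join wild-type subunits in one tetramer. R246 lies in that domain. In Em-myc lymphomas, p53 is a main brake on the growth driven by Myc.

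The label names an arginine as the residue that was changed. In the longest open reading frame of the mouse Trp53 transcript (GENCODE M21, GRCm38 annotation, chromosome 11, bases 69580348 to 69591873) the codon at that position reads CGA, an arginine codon. It is shown with 15 bases on each side and the codon in capitals, because it is the residue that the label names.
Trp53, R246 codon: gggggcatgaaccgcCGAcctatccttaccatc
The residues named in V170M, I192S and R270H also matched the mouse codons at those positions, whereas the residue named in G280 did not. The design text calls the proteins human. The construct itself was not sequenced here.

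The next sequences show what p53 and the other factors discussed here could meet at some called genes that hold a match. They are stretches just before an annotated start of 9 genes that passed the test (RefSeq, GRCm38.p6; for Uhrf1 a later start that lies inside the gene), each 5′ to 3′ on the gene's strand, with matches in capitals. The motifs were picked after values had been seen, and a match is only a description of letters. For Ccng1 (chr11:40755431-40755501, minus), Mdm2 (chr10:117710903-117710973, minus), Cdkn1a (chr17:29090874-29090954, plus), Bax (chr7:45467058-45467128, minus), Ei24 (chr9:36797335-36797404, minus) and Exoc4 (chr6:33248893-33248963, plus) the capitals mark the p53 half-site. For Mcm6 (chr1:128359735-128359835, minus) and Uhrf1 (chr17:56304098-56304168, plus) they mark the E2F site TTTNNCGC on either strand, with overlapping matches in Mcm6. For Hmgcs1 (chr13:119690181-119690251, plus) they mark the sterol element TCACNCCAC. Matches to the other motifs stay in lower case: the Hmgcs1 stretch also begins with a p53 half-site, and the Mdm2 stretch also holds an E2F site.
Ccng1: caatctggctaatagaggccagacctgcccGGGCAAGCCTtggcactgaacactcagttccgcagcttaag
Mdm2: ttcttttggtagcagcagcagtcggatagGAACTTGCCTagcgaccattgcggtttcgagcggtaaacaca
Cdkn1a: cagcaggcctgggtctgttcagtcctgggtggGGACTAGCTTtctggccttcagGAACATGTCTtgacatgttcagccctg
Bax: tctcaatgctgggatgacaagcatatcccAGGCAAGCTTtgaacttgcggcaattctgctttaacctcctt
Ei24: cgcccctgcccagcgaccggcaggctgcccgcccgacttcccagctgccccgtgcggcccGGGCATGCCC
Exoc4: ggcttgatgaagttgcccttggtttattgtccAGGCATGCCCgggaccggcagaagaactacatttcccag
Mcm6: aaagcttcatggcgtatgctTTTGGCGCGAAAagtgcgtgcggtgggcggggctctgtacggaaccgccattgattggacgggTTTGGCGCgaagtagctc
Uhrf1: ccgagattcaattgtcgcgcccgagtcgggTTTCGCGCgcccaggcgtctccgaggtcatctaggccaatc
Hmgcs1: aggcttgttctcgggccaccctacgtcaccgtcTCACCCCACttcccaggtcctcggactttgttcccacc

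With windows from 250 bases before to 50 after each start, and both strands searched, a p53 half-site was present in 8.07% of the 9360 tested genes with a window. It was present in 9.96% of the 281 genes lower in R246Q and 9.62% of the 312 genes higher in R246Q that had one. Among called p53 list members with a window, 4 of 5 feedback, 2 of 6 apoptosis and 2 of 2 arrest genes held it. So did 0 of 5 metabolic, 1 of 2 repair and 1 of 11 other targets. An E2F site was present in 10.1% of tested genes, 7.47% of the lower and 16.7% of the higher genes. The sterol element was rare, at 1.34% of tested genes, 1.07% of the lower and 0.641% of the higher genes. Of the 17 tested sterol synthesis genes with a window, only 1 held it, Hmgcs1.

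Total counts of the 6 libraries ran from 5404113 to 9312256, against 5404113 to 10718302 over all 36 libraries. The R246Q libraries held 6172890 (AH47A), 6454096 (287) and 5941164 (621) counts, and the control libraries 9312256, 8283978 and 5404113. Levels below are CPM, a gene's counts scaled to a common library total after TMM scaling. The 7 B cell markers were all detected, with summed levels of 1158 to 1509 CPM in control and 1263 to 1519 CPM in R246Q. Summed myeloid markers reached 14.6 to 46.9 CPM in control and 9.72 to 34.3 CPM in R246Q, with Mpo, S100a8 and S100a9 at 0 in all 6 libraries. Summed T cell markers reached 0.185 to 19.0 CPM in control and 0.341 to 15.3 CPM in R246Q. Most of that sum in AH47A and 287 was Zap70, at 7.51 and 18.9 CPM in control and 5.34 and 14.7 CPM in R246Q. Cd3e, Cd3d, Cd4, Trbc1 and Trbc2 were at 0 in all 6. Summed plasma cell markers reached 327 to 495 CPM in control and 462 to 487 CPM in R246Q, most of it Irf4. The part of these cells' transcripts in any result was not tested.

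Trp53 checks which libraries carry a mutant construct. It cannot check which mutant, since it lay above the control of the same line in every mutant. Before nutlin, Trp53 read 217, 291 and 206 CPM in the AH47A, 287 and 621 control libraries, and 885, 1345 and 1109 CPM in R246Q. Under nutlin it read 261, 446 and 300 CPM in control and 728, 973 and 684 CPM in R246Q. Every R246Q library thus exceeded every control library in both states. The difference under nutlin was 1.26 ± 0.24 on the log2 scale (SE, adjusted p = 0.00392), and before nutlin 2.23 ± 0.25 (adjusted p = 0.000136). The call under nutlin was lost without line 287 (adjusted p = 0.0998) or line 621 (adjusted p = 0.0622). The counts can hold reads from the cells' own gene and from the construct.

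Under nutlin, 32 of 83 tested p53 target genes and 9 of 21 amino acid stress genes were lower in R246Q than in control cells, and 9 of 24 sterol synthesis genes and 20 of 48 DNA replication genes were higher. Over all genes tested, 2.78% were lower and 3.28% higher. Of 12321 genes tested with edgeR's quasi-likelihood test (a call means a Benjamini-Hochberg adjusted p below 0.05), 747 differed, or 6.06%. Of these, 343 were lower and 404 higher in R246Q, and 740 of the 747 had the same sign in all 3 lines. Most differences were modest: the median was -0.51 among lower and 0.42 among higher genes on the log2 scale, and only 41 lower and 21 higher genes differed by a factor of 2 or more. The median over all tested genes was -0.0015. In bulk RNA, fewer cells with a transcript and less of it per cell cannot be told apart.

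The number of calls rests on the model. The fit gave each line its own nutlin response. With line as 1 additive term over both treatments, 4 genes passed, Trp53 and E2f1 among the genes named here, and with no term for line 0 passed (187 at an unadjusted p below 0.05). The 18 nutlin libraries alone gave 91 calls, 90 of them among the 747, and the 6 compared libraries alone gave 1275. Without line 287, 83 genes passed, without line 621 204, and without line AH47A 275. In each of these 7 fits, all of the 747 genes still tested kept their sign. Without the 621 R246Q library 746 of the 747 did. Of the 67 named genes called, 10 passed in all 9 fits that left out a line or 1 of the 6 libraries, among them Ccng1, Mdm4, Exoc4, Slc19a2, Rrn3, Elovl6, Sqle, Pcna and E2f8.

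Of the 6 listed genes in the feedback loop on p53, 5 passed, all lower in R246Q, with a list median of -0.63. Like the other lists here, this one was put together with earlier results of these data known, so that its direction is no independent evidence.

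Ccng1 encodes cyclin G1, which recruits a phosphatase to MDM2. It read 631, 864 and 686 CPM in the control libraries of AH47A, 287 and 621, and 353, 609 and 507 CPM in R246Q. The groups did not overlap. The difference was -0.60 ± 0.10 (adjusted p = 0.00101). Mdm2 itself read 440, 1420 and 365 CPM in control and 245, 958 and 251 CPM in R246Q. Line 287 was highest with both constructs, so the groups overlapped although R246Q was lower within each line (-0.66 ± 0.13, adjusted p = 0.00293). Mdm4, a p53 inhibitor related to Mdm2, read 478, 1062 and 405 CPM in control and 227, 708 and 278 CPM in R246Q, again overlapping between lines and lower within each (-0.74 ± 0.13, adjusted p = 0.00235). Rchy1, another ubiquitin ligase for p53, differed by -0.67 ± 0.14, and Ppm1d, the phosphatase WIP1, by -0.42 ± 0.10 (adjusted p = 0.00447 and 0.0131). The ubiquitin ligase Cop1 did not pass, at 0.14. Without line 287 the calls of Mdm2 (adjusted p = 0.071), Rchy1 (0.0814) and Ppm1d (0.117) were lost. The call of Ppm1d was also lost without line AH47A (0.104), the AH47A control library (0.127) or the 287 R246Q library (0.102).

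**Figure D1:**
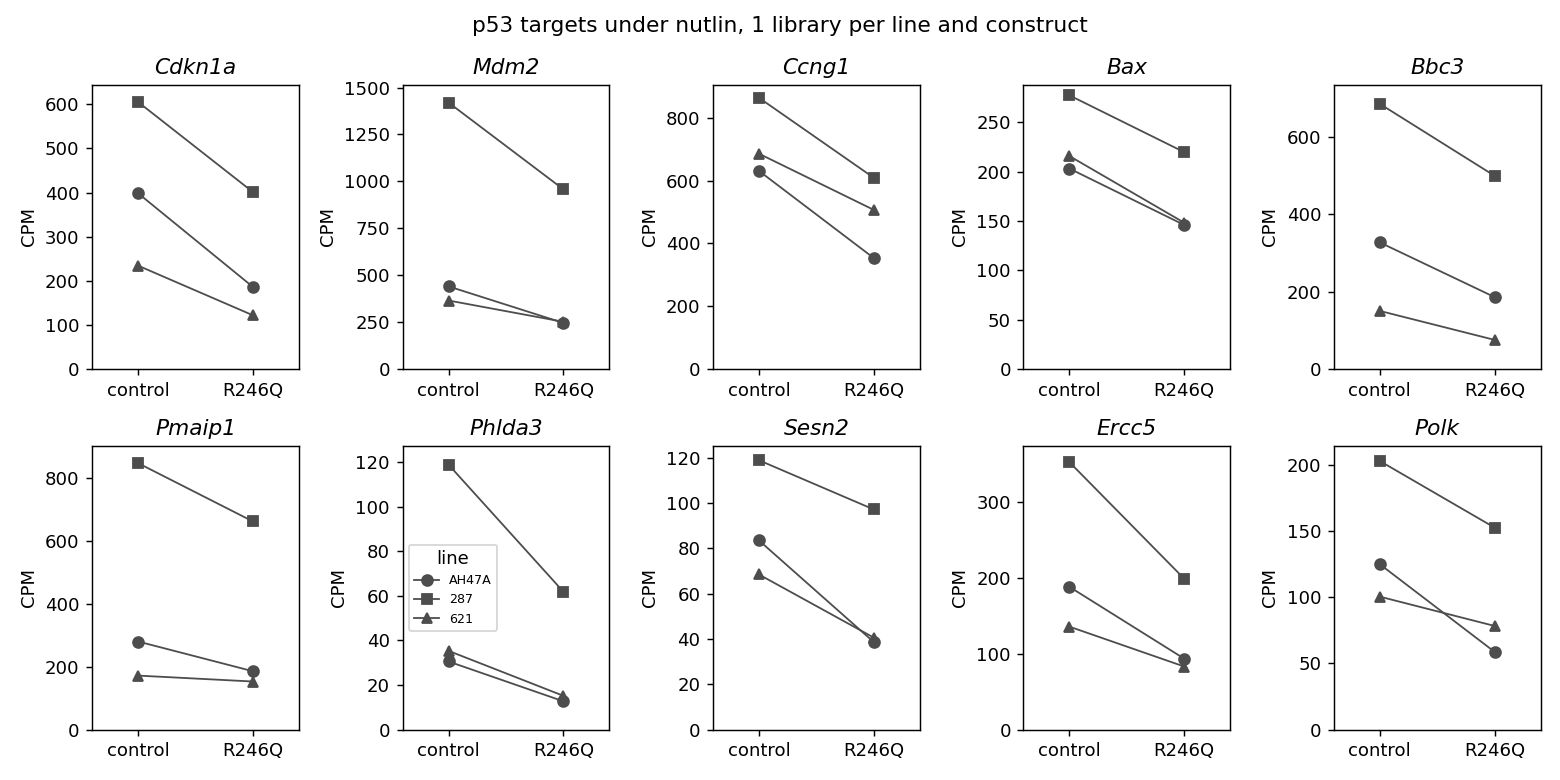
Levels of 10 p53 targets under nutlin in CPM (vertical axis, from 0) for control and R246Q, with lines joining the libraries of 1 cell line. All 10 genes lie lower in R246Q than in control in each of the 3 lines, although Bbc3 and Pmaip1 did not pass the test.

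Cdkn1a encodes p21, the kinase inhibitor through which p53 stops the cell cycle. It read 398, 605 and 234 CPM in control and 186, 401 and 122 CPM in R246Q. The AH47A and 621 libraries of R246Q were the lowest of the 6, and the groups overlapped. The difference was -0.89 ± 0.16 (adjusted p = 0.00277), a level 1.85-fold higher in control, and was lost as a call without line 621 (adjusted p = 0.0606). Before nutlin the same libraries' counterparts read 1.15, 5.01 and 6.38 CPM in control and 0.521, 5.27 and 2.59 CPM in R246Q, far below the levels under nutlin with either construct. Gtse1, a microtubule protein that restrains p53, was lower by -0.65 ± 0.12 (adjusted p = 0.00277, and 0.0684 without line 287). Of the 10 arrest genes tested, these 2 passed. Psrc1 (-0.62 ± 0.24) and Plk2 (-0.42 ± 0.17) missed the threshold, with adjusted p = 0.142 and 0.144.

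Of 18 tested apoptosis targets, 7 passed, all lower in R246Q, and the list median was -0.43. Bax, the pore-forming protein of the mitochondrial pathway, read 203, 277 and 216 CPM in control and 146, 220 and 148 CPM in R246Q. The 287 library of R246Q lay above 2 of the 3 control libraries. The difference was -0.45 ± 0.09 (adjusted p = 0.00293, and 0.0523 without line AH47A). Fas, a death receptor, was low throughout, at 7.82, 27.5 and 9.25 CPM in control and 0.942, 10.8 and 4.09 CPM in R246Q. It differed by -1.69 ± 0.35 (adjusted p = 0.0073), a call that was lost without line AH47A (0.0606) and without line 287 (0.084). Phlda3, which inhibits AKT signalling, differed by -1.16 ± 0.28 (adjusted p = 0.0142) and Trp53inp1, an autophagy and stress protein, by -0.68 ± 0.17 (0.0154). Each of the latter calls was lost in 5 of the 9 leave-outs, at adjusted p up to 0.143 and 0.192. Ei24, a membrane protein of the endoplasmic reticulum (-0.42 ± 0.08, adjusted p = 0.00239), and Apaf1, the scaffold of the apoptosome (-0.38 ± 0.08, 0.00654), were lower too, and both were lost without line 287 (0.0753 and 0.142), Apaf1 also without the 287 R246Q library (0.0832).

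The BH3-only killers that p53 induces did not pass. Bbc3, encoding PUMA, read 327, 685 and 150 CPM in control and 186, 499 and 75.0 CPM in R246Q. Its difference of -0.75 ± 0.25 was as large as that of Mdm4, with a wider error (adjusted p = 0.0807). Pmaip1, encoding NOXA, differed by -0.37 ± 0.23 (adjusted p = 0.39). Zmat3 (-0.51 ± 0.16), Aen (-0.35 ± 0.12) and Eda2r (-1.13 ± 0.37) also missed the threshold, at adjusted p = 0.0623, 0.0718 and 0.0797, and Perp was too low to be tested. With the 6 compared libraries alone Bbc3, Pmaip1, Zmat3, Aen and Eda2r all passed.

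Among BCL2 family members that are not on the target lists, 2 of 9 tested passed, in opposite directions. Bcl2l11, the BH3-only protein BIM, read 241, 291 and 221 CPM in control and 149, 224 and 165 CPM in R246Q, with 1 R246Q library inside the control range (-0.50 ± 0.13, adjusted p = 0.0242). Bcl2, the survival protein, read 9.36, 1.23 and 10.9 CPM in control and 14.9, 3.09 and 22.0 CPM in R246Q, higher within each line (0.90 ± 0.23, adjusted p = 0.0199). The call of Bcl2l11 was lost in 6 and that of Bcl2 in 7 of the 9 leave-outs, at adjusted p up to 0.281 and 0.17.

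Of 16 metabolic targets 5 passed, all lower, with a list median of -0.24. Lpin1, a phosphatidic acid phosphatase, read 36.7, 115 and 62.1 CPM in control and 17.1, 40.5 and 17.1 CPM in R246Q, so that the 287 library of R246Q lay just above the lowest control (-1.48 ± 0.31, adjusted p = 0.00638). Ak1, adenylate kinase, read 33.9, 73.9 and 26.3 CPM in control and 8.79, 33.5 and 8.53 CPM in R246Q, where again only the 287 library reached the control range (-1.57 ± 0.36, adjusted p = 0.0133). Sesn2, an inhibitor of mTORC1 signalling, differed by -0.74 ± 0.18, and Acad11, an acyl-CoA dehydrogenase, by -0.58 ± 0.14 (adjusted p = 0.0138 and 0.0126). Lpin1 lost its call without line 287 (0.13) or 621 (0.0539), Ak1 in 7, Sesn2 in 6 and Acad11 in 5 of the 9 leave-outs, at adjusted p up to 0.115, 0.137 and 0.115. Of 11 repair genes, 2 passed: Ercc5, the XPG nuclease (-0.86 ± 0.17, adjusted p = 0.0034, and 0.0939 without line 287), and Polk, a translesion polymerase (-0.65 ± 0.15, 0.0109, lost in 5 leave-outs at up to 0.119). The repair list's median was -0.01.

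A list of other described targets gave 11 lower and 1 higher of 22 tested, with a median of -0.78. Exoc4, a subunit of the exocyst, read 202, 407 and 279 CPM in control and 121, 236 and 152 CPM in R246Q. Within each line R246Q was lower, and only the 287 library reached into the control range (-0.80 ± 0.13, adjusted p = 0.00123). The thiamine transporter Slc19a2 differed by -0.61 ± 0.11 (0.00181) and Dcxr, a carbonyl reductase, by -1.33 ± 0.27 (0.00357, and 0.0529 without line 621). Zfp365 (-1.45 ± 0.37, adjusted p = 0.0241) and the epoxide hydrolase Ephx1 (-1.41 ± 0.41, 0.0427) each lost the call in 7 of the 9 leave-outs, at adjusted p up to 0.18 and 0.246, Ephx1 also with DESeq2 (adjusted p = 0.128). Tnfaip8, a regulator of apoptosis, was the member that was higher in R246Q (0.72 ± 0.13, adjusted p = 0.00181, and 0.0645 without line 621). The costimulatory ligand Cd80 missed the threshold (-0.87 ± 0.29, adjusted p = 0.0771).

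Across all 6 p53 lists, 32 of 83 tested members were lower and 1 higher, with a median of -0.42 and medians by line of -0.49 (AH47A), -0.36 (287) and -0.40 (621). The count of 32 fell to 15, 8 and 17 without line AH47A, 287 or 621, to 18 without the AH47A control library or the 287 R246Q library, and to 10 with the 18 nutlin libraries alone. In the same order of lines left out, 4, 2 and 5 feedback genes passed, 2, 1 and 6 apoptosis targets, 2, 1 and 1 arrest genes, 1, 1 and 0 metabolic targets, 1, 0 and 2 repair genes, and 5, 3 and 3 of the remaining targets. Before nutlin the median over the same members was -0.02. No member of these lists was called in the untreated comparison.

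**Figure D2:**
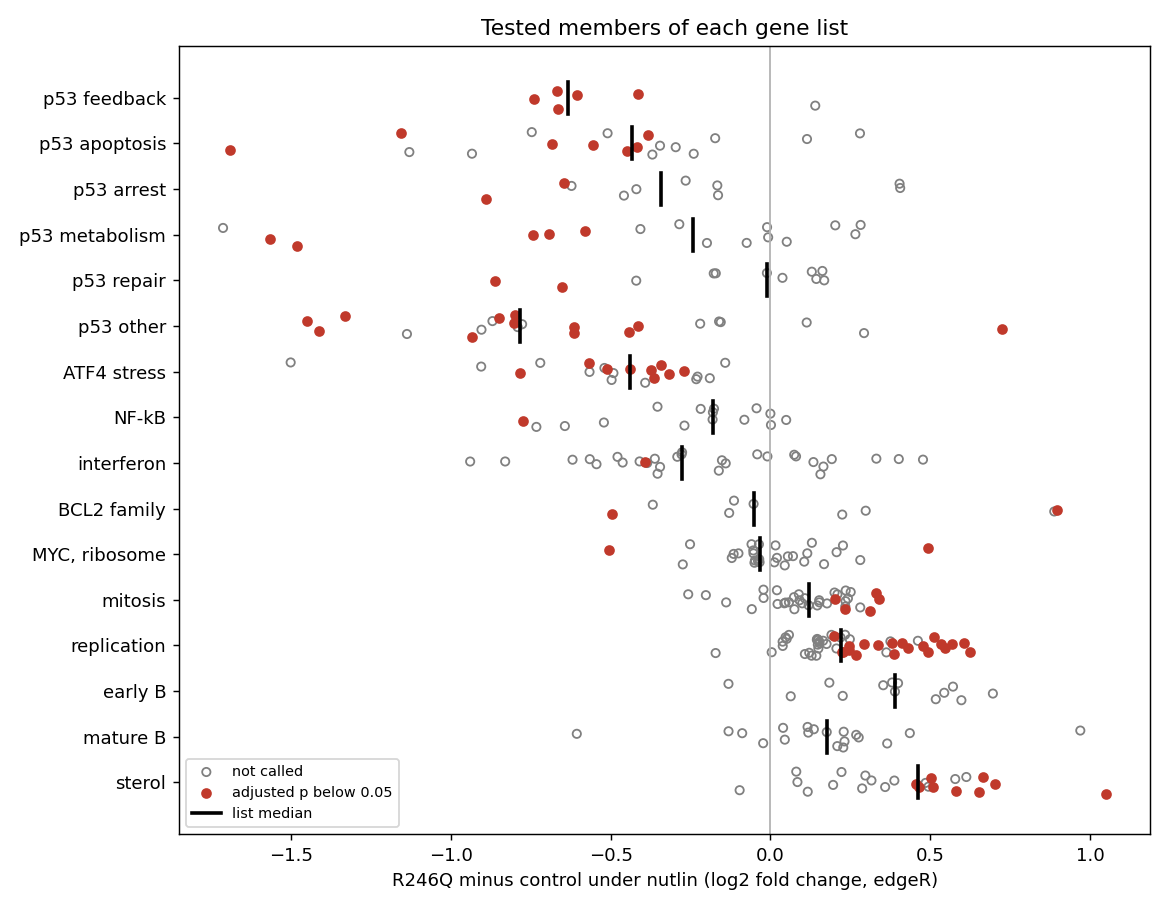
Difference R246Q minus control under nutlin (horizontal axis, fitted log2 fold change) for each tested member of 16 gene lists, with called members filled and a bar at each list's median. The medians of the ATF4 list and of 5 p53 lists lie to the left of 0, down to -0.78 for the other targets, that of p53 repair targets lies at -0.01, and those of the sterol and replication lists lie to the right, at 0.46 and 0.22.

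Most of the called differences lay along the nutlin response, with the opposite sign. The response was taken from the other 4 mutants, which share no library with R246Q or control, and 7960 genes (64.6%) responded there, 3819 upward (31%) and 4141 downward (33.6%). Of the 343 genes lower in R246Q, 311 (90.7%) were raised by nutlin in the other mutants, and of the 404 higher genes, 370 (91.6%) were lowered by it. The 831 genes raised there by a factor of 2 or more had a median difference of -0.45 between R246Q and control, with 697 below 0, 117 called lower and 1 called higher. The median was -0.47 in line AH47A, -0.40 in 287 and -0.37 in 621, and 0.05 before nutlin. It was lower for larger responses, from -0.37 for the 446 genes raised between 1 and 2 log2 units, to -0.55 for 243 genes between 2 and 4, and -0.72 for 142 genes at 4 or more. The share called lower fell in the same order, from 15.5% to 14% and 9.86%.

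The 39 p53 list members raised by at least 1 log2 unit were all below 0, 25 of them called, with a median difference of -0.79 and a median nutlin response of 3.06 in the other mutants. The 792 raised genes outside the lists had a median difference of -0.42, with 92 called lower, and a smaller median response of 1.89. The 44 tested list members that were not raised had a median of -0.16, with 7 lower and 1 higher. On the other side, the 215 genes lowered by at least 1 log2 unit had a median of 0.50, with 25 called higher and 0 lower. Their medians were 0.34, 0.46 and 0.33 in AH47A, 287 and 621.

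**Figure D3:**
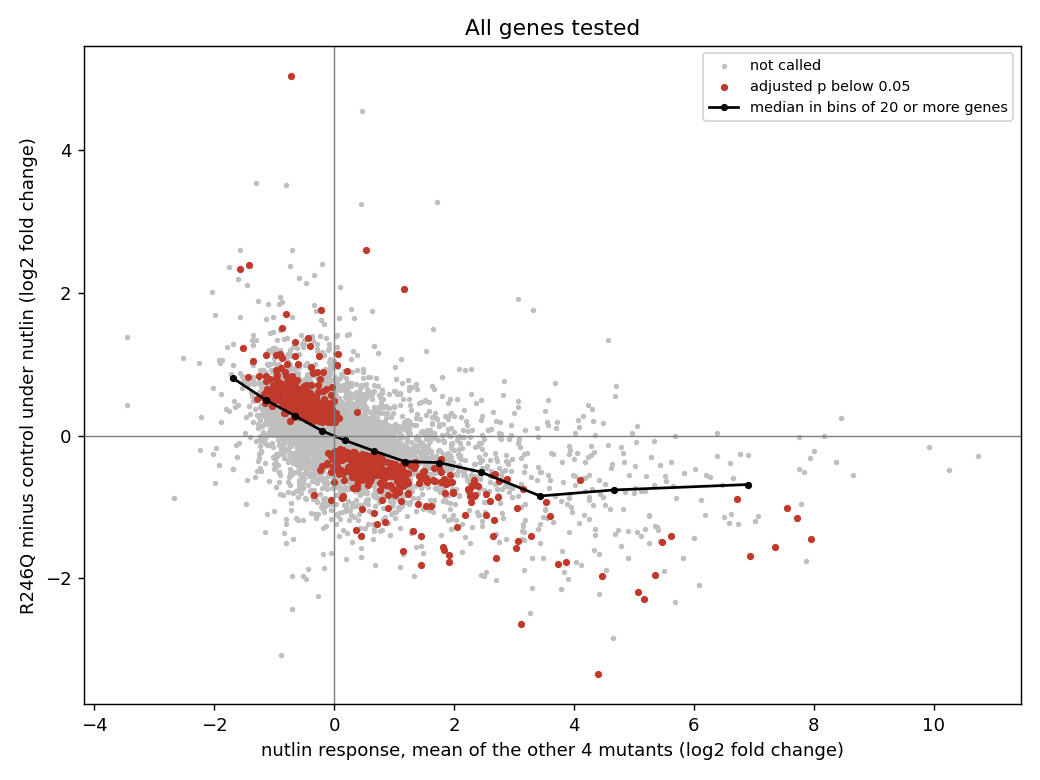
Each tested gene by its nutlin response in the mean of the other 4 mutants (horizontal axis, log2 fold change) and its difference R246Q minus control under nutlin (vertical axis, log2 fold change), with called genes in red and a line through bin medians of at least 20 genes. The line runs from above 0 for genes that nutlin lowers to below 0 for genes it raises, and most called genes follow that line.

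Of 24 tested sterol synthesis genes, 9 were higher in R246Q under nutlin, 0 were lower, and the median was 0.46. The count fell to 4, 6 and 2 without line AH47A, 287 or 621, to 4 without the 621 control library, to 5 without the AH47A control or the 621 R246Q library, and to 5 with the 18 nutlin libraries alone. In the other mutants the median nutlin response of the list was -0.74. Sqle, the epoxidase that commits squalene to sterols, read 87.4, 23.5 and 57.3 CPM in the AH47A, 287 and 621 control libraries and 150, 33.4 and 90.4 CPM in R246Q. R246Q was higher within each line, although the lines' own levels differed so much that the groups overlapped (0.66 ± 0.10, adjusted p = 0.000656). Before nutlin Sqle was at 181, 114 and 145 CPM in control and 184, 112 and 151 CPM in R246Q. Of the other called members, the demethylating oxidase Msmo1 differed by 0.70 ± 0.15 (adjusted p = 0.00554, and 0.105 without line 621) and Insig1, which retains the sterol sensor complex, by 0.51 ± 0.11 (0.00653, lost in 3 leave-outs at up to 0.108). Elovl6, a fatty acid elongase outside the list, read 137, 60.2 and 95.2 CPM in control and 250, 118 and 185 CPM in R246Q, overlapping between lines and higher within each (0.93 ± 0.11, adjusted p = 5.54e-05).

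Of 48 replication genes, 20 were higher and 0 lower, with a median of 0.22 and 47 of the 48 above 0. Pcna, the sliding clamp of DNA polymerase, read 123, 123 and 126 CPM in control and 162, 167 and 200 CPM in R246Q. The groups did not overlap (0.49 ± 0.08, adjusted p = 0.000787). Before nutlin Pcna had read 214, 285 and 235 CPM in control and 198, 274 and 249 CPM in R246Q, where the ranges overlapped. Uhrf1, which brings DNMT1 to replicated DNA, read 182, 138 and 155 CPM in control and 229, 243 and 227 CPM in R246Q, again with no overlap (0.57 ± 0.08, adjusted p = 0.000444, and 0.0664 without line 287). The transcription factors E2f1 (0.53 ± 0.09, adjusted p = 0.000832, and 0.0561 without line 287) and E2f8 (0.61 ± 0.11, 0.00235) were higher, too. With RLE in place of TMM scaling 15 members passed, with the 18 nutlin libraries alone 4, and without line AH47A, 287 or 621 8, 2 and 5. Leaving out single libraries gave 8 to 16. Of the 39 tested members with a promoter window, 17 held an E2F site.

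Of 35 tested mitosis genes, 5 were higher and 0 lower, with a median of 0.12, and 0 passed without line 287, without line 621 or without the 621 control library. Ccna2, cyclin A, differed by 0.34 ± 0.07 (adjusted p = 0.00639, lost in 3 of 9 leave-outs at up to 0.114). Cdk1 (0.31 ± 0.08, 0.0131), the kinetochore protein Nuf2 (0.33 ± 0.09, 0.0277) and the kinesin Kif20a (0.20 ± 0.06, 0.0485) lost their calls in 6, 8 and 9 of the leave-outs. Of 29 genes for MYC targets and ribosome assembly, 1 was lower and 1 higher, and the median was -0.03. These shares of 3.45% each lay near the 2.78% lower and 3.28% higher over all genes tested. The lower one was Rrn3, the initiation factor of RNA polymerase I, at 404, 628 and 410 CPM in control and 274, 439 and 304 CPM in R246Q (-0.51 ± 0.07, adjusted p = 0.000444). Only the 287 library of R246Q lay within the control range. The higher one was Ldha, lactate dehydrogenase (0.49 ± 0.14, adjusted p = 0.0401, lost in 8 leave-outs at up to 0.366). Myc, whose counts can include the transgene, read 3995, 3432 and 5617 CPM in control and 3876, 3238 and 4820 CPM in R246Q and did not pass (-0.12 ± 0.10, adjusted p = 0.553).

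ATF4 stress genes supply amino acids and tRNA charging when translation is restrained. Of 21 tested members 9 passed, all lower, 21 of 21 were below 0, and the median was -0.44. Slc3a2, the heavy chain of amino acid transporters, read 638, 1319 and 720 CPM in control and 408, 953 and 536 CPM in R246Q, overlapping between lines and lower within each (-0.51 ± 0.12, adjusted p = 0.00887). The aminotransferase Gpt2 (-0.57 ± 0.14), asparagine synthetase Asns (-0.37 ± 0.09) and the serine tRNA synthetase Sars (-0.37 ± 0.09) had adjusted p = 0.0144, 0.013 and 0.0158. These 4 calls were lost in 3 to 5 of the leave-outs, at adjusted p up to 0.118, and the list had 0 calls with the 18 nutlin libraries alone or without line 287, 1 without the 287 R246Q library, and 2 without line AH47A, line 621 or the 621 control library.

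**Figure D4:**
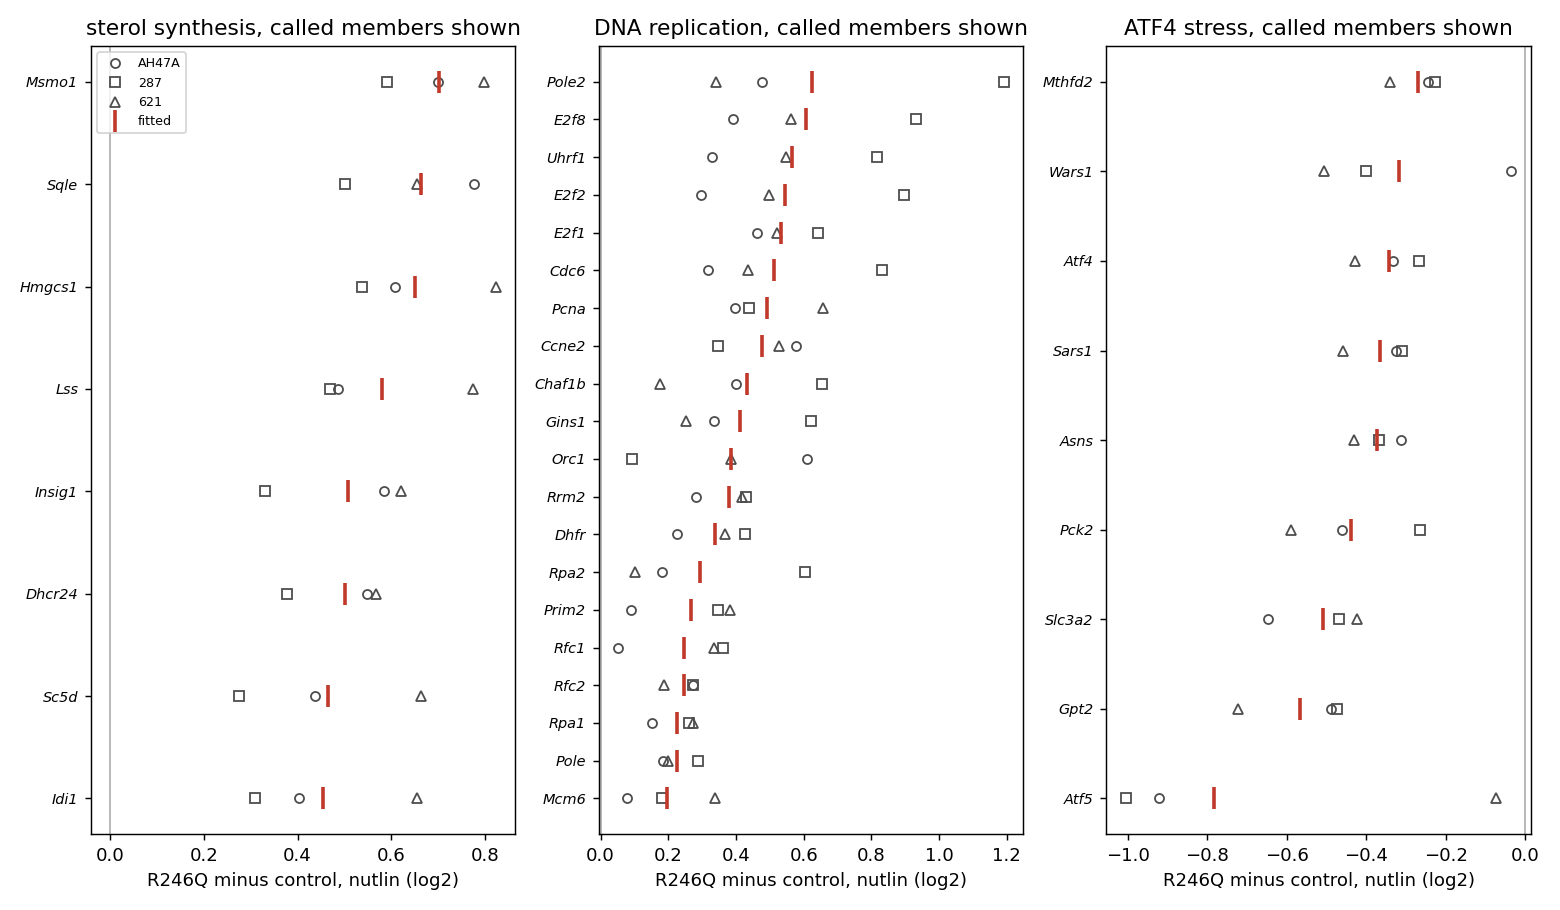
Difference R246Q minus control under nutlin (horizontal axis, log2) in each line, as a circle (AH47A), square (287) or triangle (621), for called members of the sterol, replication and ATF4 lists, with a red bar at the fitted value. Every symbol of the sterol and replication panels lies above 0 and all those for ATF4 genes lie under 0, while single members such as Pole2 and Atf5 spread widely between lines.

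Of 30 interferon genes 1 was lower (3.33%, against 2.78% of all genes tested), Bst2 or tetherin (-0.39 ± 0.12, adjusted p = 0.0397). Of 15 NF-kB genes 1 was lower (6.67%), Nfkb2 (-0.77 ± 0.23, adjusted p = 0.046). Each of these calls was lost in 8 of the 9 leave-outs, at adjusted p up to 0.317 and 0.21. In the other mutants the median nutlin response was 2.93 for the interferon list and 2.01 for the NF-kB list. Their median differences between R246Q and control were -0.28 and -0.18. By line (AH47A, 287 and 621) the interferon medians were -0.21, -0.41 and 0.15, so that line 621 went the other way. The NF-kB medians were -0.29, -0.15 and -0.26. Only 11 of the 30 interferon and 6 of the 15 NF-kB genes had the same sign in all 3 lines. None of 13 early B cell genes and none of 19 mature B cell genes passed, with medians of 0.39 and 0.18. In AH47A, 287 and 621 the early B medians were 0.37, 0.57 and 0, and the mature B medians 0.10, 0.10 and 0.06. The sign was the same in all 3 lines for 3 of the 13 early and 8 of the 19 mature genes. In the fit of the 6 compared libraries alone, 3 early and 3 mature B cell genes were higher, and 9 interferon genes lower.

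The named genes of largest difference included some outside the lists. Crip2, a LIM protein, differed by -1.41 ± 0.31 (adjusted p = 0.00785), the membrane protease St14 by -1.41 ± 0.34 (0.0152), and the FGF-binding protein Fgfbp3 by -1.32 ± 0.24 (0.00212). Their calls were lost in 2, 6 and 1 of the 9 leave-outs, at adjusted p up to 0.0963, 0.115 and 0.063. Higher in R246Q were Ceacam2, an adhesion molecule, at 2.57, 1.11 and 4.07 CPM in control and 4.24, 4.79 and 10.74 CPM in R246Q (1.31 ± 0.23, adjusted p = 0.00181), Srd5a1, a steroid reductase (1.13 ± 0.22, 0.00336) and Acss1, a mitochondrial acetyl-CoA synthetase (0.97 ± 0.20, 0.00447). Among these 6 genes the groups did not overlap for Crip2, Fgfbp3 and Ceacam2. The genes had been picked for a large called difference of 1 sign in all 3 lines, a choice that favours groups without overlap. How many of all tested genes had no overlap was not counted. The call of Ceacam2 was lost without line 287 (0.103) and without line 621 (0.0524), that of Acss1 without line 287 (0.0998), and that of Srd5a1 in 3 leave-outs at up to 0.111.

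The same comparison before nutlin gave 1 call among 12321 genes (0.00812%), Trp53 itself, with 232 genes at an unadjusted p below 0.05. Whether the difference under nutlin was another one than before was tested as the difference of the 2 responses. That test called 3 genes (0.0243%), 1 lower (0.00812%) and 2 higher (0.0162%), with 1392 at an unadjusted p below 0.05. Elovl6 fell less under nutlin in R246Q than in control (0.92 ± 0.15, adjusted p = 0.0284), and the gene called lower was Cd68, a lysosomal protein (-1.92 ± 0.35, 0.0298). For Cdkn1a the same term was -0.28 (adjusted p = 0.881), for Mdm2 -0.70 (0.0984) and for Pcna 0.52 (0.07). A difference that appears under nutlin is therefore shown to differ from that before nutlin for those 3 genes only, and for 0 genes with the additive line term. Of 15 fits that left out a line or library, the call of Elovl6 was kept in 4 (adjusted p up to 0.242) and that of Cd68 in 2 (up to 0.492). With DESeq2 the test called 48 genes lower and 86 higher, and with the groups compared alone 256 and 262.

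R246Q under nutlin was also set against the mean of the other 4 mutants, which uses no control library. That test called 4 genes (0.0325%), all higher in R246Q, with 434 at an unadjusted p below 0.05. For Cdkn1a the difference was -0.03 with a 95% interval of -0.30 to 0.24, for Mdm2 0.09 (-0.11 to 0.30), for Ccng1 -0.10 (-0.26 to 0.06), for Elovl6 -0.01 (-0.19 to 0.17) and for Pcna -0.03 (-0.16 to 0.09). None of these intervals reaches the difference from control of the same gene, but a missed threshold does not show that the mutants act alike. The 12 libraries of the other mutants ranged from 104 to 504 CPM for Cdkn1a, a range that holds all 3 R246Q values. Over the 83 tested p53 list members the median difference from the other mutants was -0.01. Each R246Q-minus-control value rests on the same 3 control libraries, which the other mutants' own comparisons would share.

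**Figure D5:**
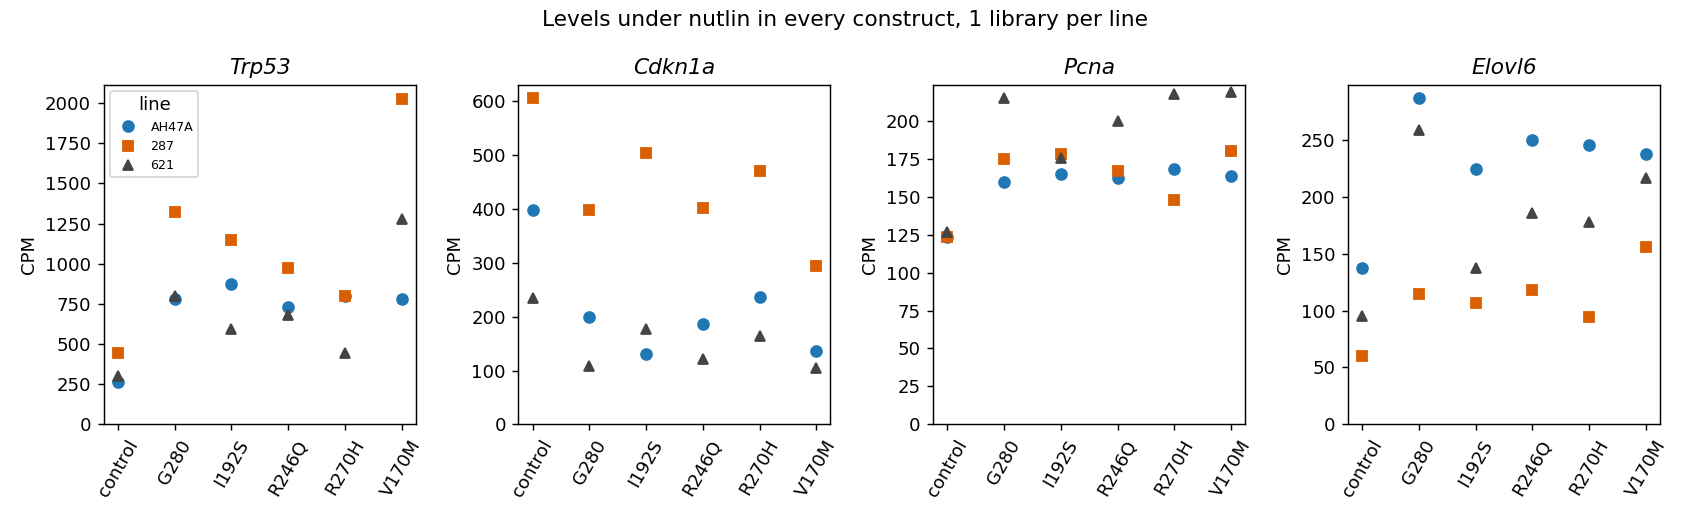
Levels of Trp53, Cdkn1a, Pcna and Elovl6 under nutlin in CPM (vertical axis, from 0) in each of the 18 nutlin libraries by construct, with a symbol per line. Within each line the control lies lowest for Trp53, Pcna and Elovl6 and highest for Cdkn1a, and the R246Q library lies between those of the other 4 mutants in each panel, except for Trp53 in AH47A, where it is under all 4.

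Of the 4 called genes, Igkv8-28, Igkv8-27 and Fgf13 stood apart in 1 line each. Igkv8-28, an immunoglobulin kappa variable segment, read 13.5 CPM in the 621 library of R246Q and 0 in its AH47A and 287 libraries, against 2.03 CPM in the 621 control and at most 1.83 CPM in the other mutants (3.98 ± 0.51, adjusted p = 0.00373). Igkv8-27 behaved likewise, at 9.38 CPM in the 621 library of R246Q and at most 2.17 CPM in the other mutants (2.78 ± 0.43, adjusted p = 0.0167). Both were already high before nutlin in line 621. Igkv8-28 read 21.3 CPM in R246Q and 2.0 CPM in control there, and Igkv8-27 15.5 and 3.39 CPM. Such segments have near-identical copies, between which the counting could split reads. Fgf13, a growth factor homolog, read 7.85 CPM in the AH47A library of R246Q and 7.31 CPM in the AH47A control, with at most 2.78 CPM in the other mutants and 0 in the 287 and 621 libraries of R246Q (4.90 ± 0.56, adjusted p = 0.0141). Abhd6, a lipid hydrolase, read 20.6 CPM in AH47A R246Q and 18.7 CPM in the AH47A control, against at most 9.74 CPM in the other mutants' AH47A libraries (1.65 ± 0.30, adjusted p = 0.0177). In line 621 it read 1.71 CPM in R246Q against at most 0.408 CPM in the other mutants, and in line 287 its 1.39 CPM lay within the other mutants' range.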

How the data were processed

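RNA-seq libraries of 6 constructs, before and after nutlin-3a, in 3 lines were analysed. The authors deposited raw gene counts, made with featureCounts per the submitters' processing notes, which also name bcl2fastq 1.8.4 and the builds mm10 and GRCm38. These sources name no aligner and do not say whether counting used strand. The 36 sample files equal the series table, which holds 27179 genes, 859 of them without a symbol (0.303% of counts). No 2 libraries were identical.

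Counts were fitted with edgeR 4.0.16 in R 4.3.3 over all 36 libraries (TMM, filterByExpr with a minimum count of 10, robust quasi-likelihood test), leaving 12321 genes with 99.94% of counts. The model held 12 groups plus line and line by treatment, with 20 residual degrees of freedom and a biological coefficient of variation of 9.68%. Errors are standard errors. The Benjamini-Hochberg adjustment ran over all tested genes, with calls below 0.05. Line is the pairing named in the labels: same-line deviations of R246Q and control under nutlin correlated at 0.901, 0.893 and 0.887. This model was chosen knowing from earlier results that the lines respond differently to nutlin, and an additive line term, DESeq2 1.42.0 and other alternatives were run beside it. The members and lists were chosen with earlier results of these data known.

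Named were Trp53, 25 fixed targets and related genes (24 tested), up to 4 called members per list by p, the 12 largest calls in each direction at a mean of at least 5 CPM and the same sign in all lines, and the calls of the smaller comparisons. Lists covered p53 targets by role, the BCL2 family, interferon, NF-kB, ATF4, sterol, replication, mitosis, MYC and ribosome, and B cell genes. Some genes that meet this rule are not reported here. Scripts were tested on simulated data. There 60%, 90%, 96% and 98% of changes of 1.5-, 2-, 3- and 4-fold were recovered, and 8.02% of calls were false. The changed genes were drawn only from those above a minimum mean count, and the simulated counts came from the fitted model itself. These shares therefore do not cover the genes of lowest counts, nor how the calls depend on the model. RefSeq symbols matched 11988 tested genes. Depth of 5404113 to 10718302 counts limits genes of a few CPM most.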

Additional observations from a re-analysis of the deposited data

Results flagged for a closer look

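For Elovl6 and Cd68 the nutlin response differed between R246Q and control by the test of the difference itself. Elovl6 had a response difference of 0.92 (log2, R246Q minus control): its level went from 384, 414 and 291 CPM to 137, 60.2 and 95.2 CPM in the AH47A, 287 and 621 control cells, and from 393, 424 and 280 CPM to 250, 118 and 185 CPM in R246Q. Cd68 had a response difference of -1.92, with 2.04, 2.43 and 2.21 CPM before and 5.66, 6.90 and 2.40 CPM after nutlin in control, against 3.85, 4.75 and 5.05 CPM before and 2.20, 3.25 and 2.56 CPM after in R246Q. Itgam, the other tested myeloid marker, was at 21.1, 40.0 and 12.0 CPM in control and 16.3, 30.5 and 7.16 CPM in R246Q under nutlin. The part of such cells in the Cd68 value was not tested. Leaving out a line or library ended the Elovl6 call in 11 of 15 fits, at adjusted p up to 0.242 and values of 0.86 to 0.97, and the Cd68 call in 13 of 15, at adjusted p up to 0.492 and values of -2.16 to -1.75. With DESeq2, Elovl6 passed (adjusted p = 0.000108) and Cd68 had no adjusted p. With a minimum count of 50 Cd68 was not tested, and without a filter on low counts its adjusted p was 0.0585.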

How the results depend on the processing

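Genes lower and higher in R246Q under nutlin numbered 343 and 404. They numbered 1 and 3 with line as an additive term, 0 and 0 with no replicate block (no term for line), 660 and 615 with only the groups compared, and 48 and 43 with the 18 nutlin libraries, and ranged from 44 to 301 and from 39 to 297 when a line or library was left out. RLE, upper quartile factors, DESeq2, no low-count filter and a minimum count of 50 gave counts within 1.5 times. Before nutlin (0 and 1), the higher count was 0 with no replicate block and both became 1 and 3 with the groups compared. Leave-outs gave 0 to 1 lower and 0 to 3 higher. The response difference (1 and 2) gave 0 and 0 with the additive term, 0 and 0 with no replicate block, 256 and 262 with the groups compared, 48 and 86 with DESeq2, and 0 lower with no filter or a minimum count of 50. Leave-outs gave 0 to 1 lower and 0 to 12 higher. Against the other 4 mutants (0 and 4), the higher count was 2 with the additive term, 0 with no replicate block, 0 with the groups compared, 2 with the 18 libraries, 0 with DESeq2, 7 with no filter, 0 with a minimum count of 50, and 2 to 5 in leave-outs, where the lower count remained 0 to 0. The median over genes raised by nutlin moved from -0.45 to -0.60 at a response of 2 or more. The groups compared alone hold fewer samples, and the no-block fit leaves the line difference unmodelled. What moved the counts in any of these fits was not tested.

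Of the 67 named calls, 2 were kept with the additive term, 0 with no replicate block, 27 with the 18 libraries, 56 with DESeq2, where 10 had no adjusted p and 1 was lost, 59 with no filter, and 18 without line 287. Signs of R246Q minus control under nutlin reversed for 3 genes. Fgf13 (0.01) went to -0.034 with the additive term, -0.55 with DESeq2 and -0.0077 with no filter, and ranged from -2.68 without the AH47A R246Q library to 0.11 in leave-outs. Abhd6 (-0.07) went to 0.052 with no replicate block and ranged from -0.34 without line AH47A to 0.14 without the 287 R246Q library. Igkv8-28 (2.61) ranged from -1.48 without the 621 R246Q library to 2.91 without the 621 control library. Genes of a few CPM are limited by depth.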

Other observations

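The gene families here were picked by symbol after the values had been seen, and apart from Sars, Wars, Psmb9 and Rps27l their members were on no list used above. Of 15 tested small nucleolar RNA host genes, 5 were lower in R246Q under nutlin (Snhg1, Snhg12, Snhg15, Snhg17 and Zfas1) and 0 higher, with a median difference of -0.31, a median of -0.10 before nutlin and a median nutlin response of 0.46 in the other 4 mutants. Of 34 tRNA synthetase genes, 10 were lower (Aars, Cars, Gars, Mars, Sars, Tars, Vars, Wars, Wars2 and Yars) and 1 was higher. Among 78 ribosomal protein genes, 3 were lower (Rpl3, Rpl12 and Rpl18), 0 higher, and 60 lay below 0, with a median of -0.15. None of 38 genes with proteasome symbols (Psma, Psmb, Psmc or Psmd and a digit) or 43 histone genes passed. Among 45 complex I genes, taken by symbols that begin with Nduf and not only subunits, 1 passed, Ndufa12, which was higher. The histone genes had a median difference of 0.02 and a median nutlin response of 1.49 in the other 4 mutants. Of 15 fatty acid synthesis genes, Acly and Elovl6 were higher and Acss2 lower, with a median of 0.27. Over all genes tested, 2.78% were lower and 3.28% higher. These are descriptions, and no test over a family was run.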
